A study of Mus musculus with 8 samples.

Results

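Genes of glycolysis and of the response to low oxygen were described in myeloid cells of the mouse sciatic nerve. The set holds 32 genes chosen by symbol from 30406 genes that both gene lists share: 2 glucose transporters, 10 enzymes of the upper and 5 of the lower glycolytic pathway, 2 enzymes that set the activity of phosphofructokinase, 5 genes for the fate of pyruvate and lactate, 3 genes of oxygen sensing and 5 other genes known to respond to hypoxia. All 32 were found and all 32 passed the filter on low counts, Egln3 only through the group in which it was highest. A second row under the symbol Aldoa had at most 1 unique molecular identifier (UMI, 1 per captured RNA molecule) in any sample and was not used.

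Single-cell RNA was read from CD45+/CD11b+ cells sorted from the sciatic nerve of male and female C57BL/6JolaHsd mice. At 1 week the groups were sham surgery (the nerve exposed but not injured, 2 samples), nerve crush with forceps (2 samples) and partial sciatic nerve ligation (PSNL, in which part of the nerve is tightly tied and the ligature stays in place, 2 samples). At 15 weeks the groups were crush (3 samples) and PSNL (4 samples), and sham nerves of that time were not analysed here. A sample is the cells that carry 1 hashtag antibody, and whether a hashtag marks a single mouse or a pool is not stated, so the p-values measure only the spread between these samples. The PSNL samples of 1 week shared a library with the sham female and the crush samples of 1 week shared one with the sham male. Injury therefore coincides with library apart from the sham samples, and time coincides with batch, with the version of the counting software and with the sort, which excluded Ly6G+ cells at 1 week only.

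Glycolysis splits glucose into pyruvate in the cytoplasm and yields ATP without oxygen. Lactate dehydrogenase turns pyruvate into lactate, which leaves the cell through monocarboxylate transporters, whereas pyruvate dehydrogenase passes it on to the mitochondria. When oxygen is scarce, the prolyl hydroxylases that mark HIF-1α for breakdown are less active, and HIF-1α with its partner ARNT binds a short DNA motif, ACGTG or GCGTG, near genes for glucose uptake, glycolysis and mitochondrial turnover. Activated macrophages and neutrophils are known for a strong reliance on glycolysis.

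Neutrophils were kept apart as cells with at least 1% of their UMIs in S100a8 plus S100a9, and the values below are for the other cells unless neutrophils are named. Of 6546 cells kept, 317 were neutrophils. Of these, 272 of 1405 cells were in PSNL at 1 week, 27 of 938 in crush and 12 of 170 in sham. The other cells numbered 63 to 1554 per sample, with 246338 UMIs in the sham female, the shallowest sample, and 15288422 in the crush male of 15 weeks, the deepest. All 10 macrophage markers were detected in every sample, and their summed level was 7570 to 62340 CPM (counts scaled to a fixed total per sample). Red cell markers summed to at most 2.55 CPM. The number of cell barcodes shared between libraries was 1 to 3 per pair. Xist did not exceed 1.06 CPM in any male sample, and Ddx3y did not exceed 1.36 CPM in any female sample.

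The start regions of 5 members are printed here because their genes behaved differently at 1 week and because the HIF motif can be read in them. They are the 300 bases around the RefSeq start of the gene (250 before it and 50 after it, build GRCm38.p6), in the direction of transcription, and capitals mark ACGTG or GCGTG on either strand (CACGT or CACGC when read on this strand). Bnip3, Slc2a1, Hilpda and Tpi1 were higher in PSNL than in crush, and Hk2 was not. Hilpda has 2 RefSeq starts, of which the one with more matches is shown.

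Bnip3 (chr7:138909457-138909756, minus strand, 5 matches, where CACGTG reads as a match on both strands): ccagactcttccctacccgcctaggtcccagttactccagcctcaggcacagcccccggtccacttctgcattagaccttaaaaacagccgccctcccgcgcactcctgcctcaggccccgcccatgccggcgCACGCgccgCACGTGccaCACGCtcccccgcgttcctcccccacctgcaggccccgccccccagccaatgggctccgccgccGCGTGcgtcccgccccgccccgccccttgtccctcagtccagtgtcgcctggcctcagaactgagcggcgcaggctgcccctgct

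Slc2a1 (chr4:119108495-119108794, plus strand, 2 matches): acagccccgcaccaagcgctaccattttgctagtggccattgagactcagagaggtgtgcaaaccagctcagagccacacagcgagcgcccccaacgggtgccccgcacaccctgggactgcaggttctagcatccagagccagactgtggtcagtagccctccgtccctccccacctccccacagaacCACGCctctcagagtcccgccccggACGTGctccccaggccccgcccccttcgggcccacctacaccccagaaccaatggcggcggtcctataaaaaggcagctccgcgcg

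Hilpda (chr6:29272376-29272675, plus strand, 3 matches): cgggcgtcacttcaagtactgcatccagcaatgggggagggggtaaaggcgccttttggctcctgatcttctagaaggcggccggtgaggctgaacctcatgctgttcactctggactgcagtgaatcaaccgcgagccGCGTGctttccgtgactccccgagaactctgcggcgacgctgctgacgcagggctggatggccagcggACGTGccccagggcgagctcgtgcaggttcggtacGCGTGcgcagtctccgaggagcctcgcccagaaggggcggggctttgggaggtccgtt

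Tpi1 (chr6:124814109-124814408, minus strand, 0 matches): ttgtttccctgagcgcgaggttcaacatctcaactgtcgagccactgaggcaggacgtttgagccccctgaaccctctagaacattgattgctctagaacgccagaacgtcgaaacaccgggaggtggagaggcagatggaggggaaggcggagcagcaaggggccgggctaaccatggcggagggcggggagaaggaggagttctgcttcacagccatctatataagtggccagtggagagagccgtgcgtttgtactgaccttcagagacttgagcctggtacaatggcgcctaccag

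Hk2 (chr6:82774405-82774704, minus strand, 2 matches): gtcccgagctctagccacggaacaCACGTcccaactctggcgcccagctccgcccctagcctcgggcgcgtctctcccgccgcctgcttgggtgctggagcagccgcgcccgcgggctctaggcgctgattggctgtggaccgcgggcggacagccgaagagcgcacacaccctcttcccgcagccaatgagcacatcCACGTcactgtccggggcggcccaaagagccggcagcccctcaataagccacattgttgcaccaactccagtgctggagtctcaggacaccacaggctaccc

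Of the 32 members, 30 had a RefSeq start region in the table, and Slc2a3 and Ndrg1 had none there. At least 1 match was found for 28 of these 30 members, and in 37 of their 44 start regions (84.1%). Of all 32851 start regions of the table, 43.8% held a match, and of the 11474 that belong to genes tested here, 61.6% did. A match was present for 17 of the 18 members that were higher in PSNL than in crush and for 11 of the 12 others with an entry. The members were chosen partly as genes known to respond to hypoxia, so a share above that of all start regions is no result of these data. Some members have several start regions, so the 28 of 30 cannot be set against shares of start regions. A match of these letters is not a measured binding site.

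In PSNL at 1 week the 32 genes together made up more of the RNA than in any other group. Their share of all UMIs was 0.570% in the PSNL female and 0.705% in the PSNL male, against 0.279% in the crush female, 0.240% in the crush male, 0.325% in the sham male and 0.179% in the sham female. At 15 weeks the share was 0.172% to 0.240% in crush and 0.181% to 0.201% in PSNL. Both PSNL samples of 1 week lay above all 11 others. The means were 0.638% ± 0.0953 (SD, n = 2) in PSNL, 0.260% ± 0.0277 (n = 2) in crush and 0.252% ± 0.103 (n = 2) in sham at 1 week, and 0.193% ± 0.00844 (n = 4) in PSNL and 0.209% ± 0.0342 (n = 3) in crush at 15 weeks. No test was made on these summed shares.

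**Figure D1:**
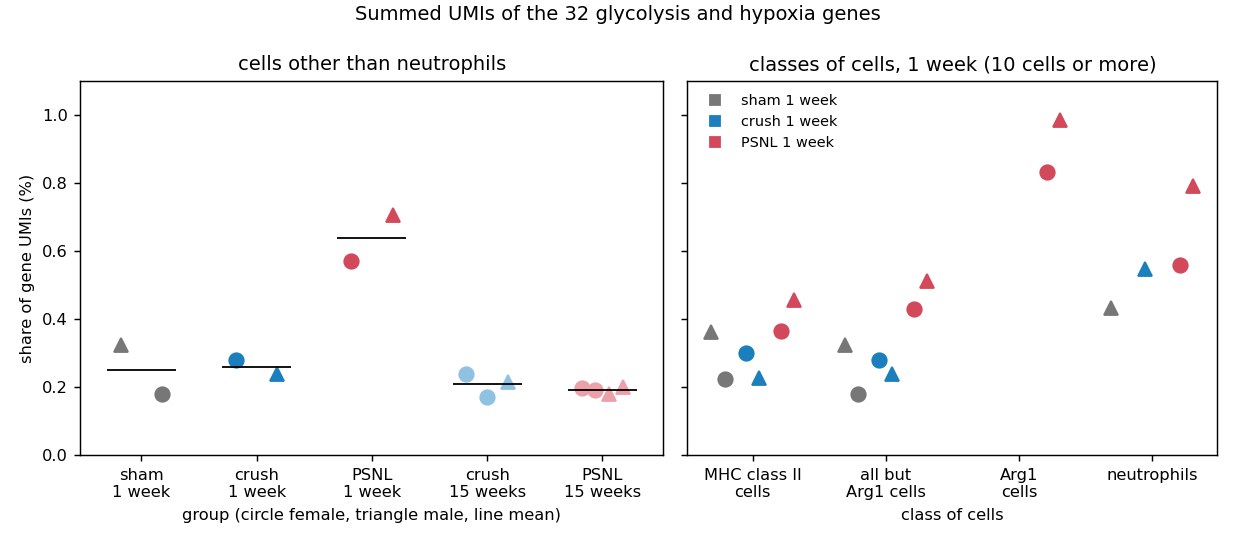
Summed UMIs of the 32 genes as a percentage of all gene UMIs. Left, each point is a sample of cells other than neutrophils and the line is the group mean. Right, the 1 week samples by class of cells for classes with at least 10 cells in the sample (MHC class II cells, all cells but Arg1 cells, Arg1 cells, neutrophils). The PSNL samples of 1 week lie at 0.570% and 0.705% on the left, above the 11 others, and their Arg1 cells lie at 0.834% and 0.986% on the right.

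The higher share in PSNL was seen in the median cell as well as in the sum. The median cell had 0.409% of its UMIs in these genes in the PSNL female and 0.570% in the PSNL male, with quartiles of 0.211% and 0.762% in the female and of 0.283% and 0.974% in the male. In crush the medians were 0.213% and 0.219% and in sham 0.135% (female) and 0.221% (male). A level summed over the cells of a sample cannot tell more cells of a type from more RNA per cell, and that holds for each level below.

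The groups of genes did not contribute alike. The 5 enzymes of lower glycolysis made up 0.290% ± 0.0443 (SD, n = 2) of UMIs in PSNL, 0.117% ± 0.0206 in crush and 0.110% ± 0.0562 in sham. The 10 enzymes of upper glycolysis made up 0.166% ± 0.0269, 0.0782% ± 0.00595 and 0.0762% ± 0.0262 in the same order. Genes for the fate of pyruvate and lactate stood at 0.0677% ± 0.00921 in PSNL, 0.0288% ± 0.00364 in crush and 0.0312% ± 0.00967 in sham. Oxygen sensing genes stood at 0.0408% ± 0.000304, 0.0135% ± 0.000233 and 0.0148% ± 0.0054, and the other hypoxia genes at 0.0581% ± 0.0154, 0.0117% ± 0.00166 and 0.0114% ± 0.0024. The regulators of phosphofructokinase showed no such order, with 0.00831% ± 0.000835 in PSNL, 0.0082% ± 0.000926 in crush and 0.00607% ± 0.00227 in sham.

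PSNL and crush at 1 week were compared first; the nerve is injured in both. In this comparison 18 of 32 members were higher in PSNL and 0 were lower (edgeR quasi-likelihood test, adjusted p under 0.05 over 11510 genes), where 5.93% of all genes tested were called higher and 5.89% lower. DESeq2 called 20 members higher. Its counts here and against sham are given without the share of all genes it called, so they say nothing on agreement between the methods. The median log2 difference was 1.21 over the members and -0.03 over all genes. PSNL against sham gave 12 members higher and 0 lower, where 3.00% of all genes were called higher and 2.11% lower, and DESeq2 called 13. The median was 1.16 over the members, or 1.11 with 2 genes that sham lacked set to their lower bound, and 0.09 over all genes. The 12 members called against sham were all among the 18 called against crush, and both comparisons use the same PSNL samples.

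**Figure D2:**
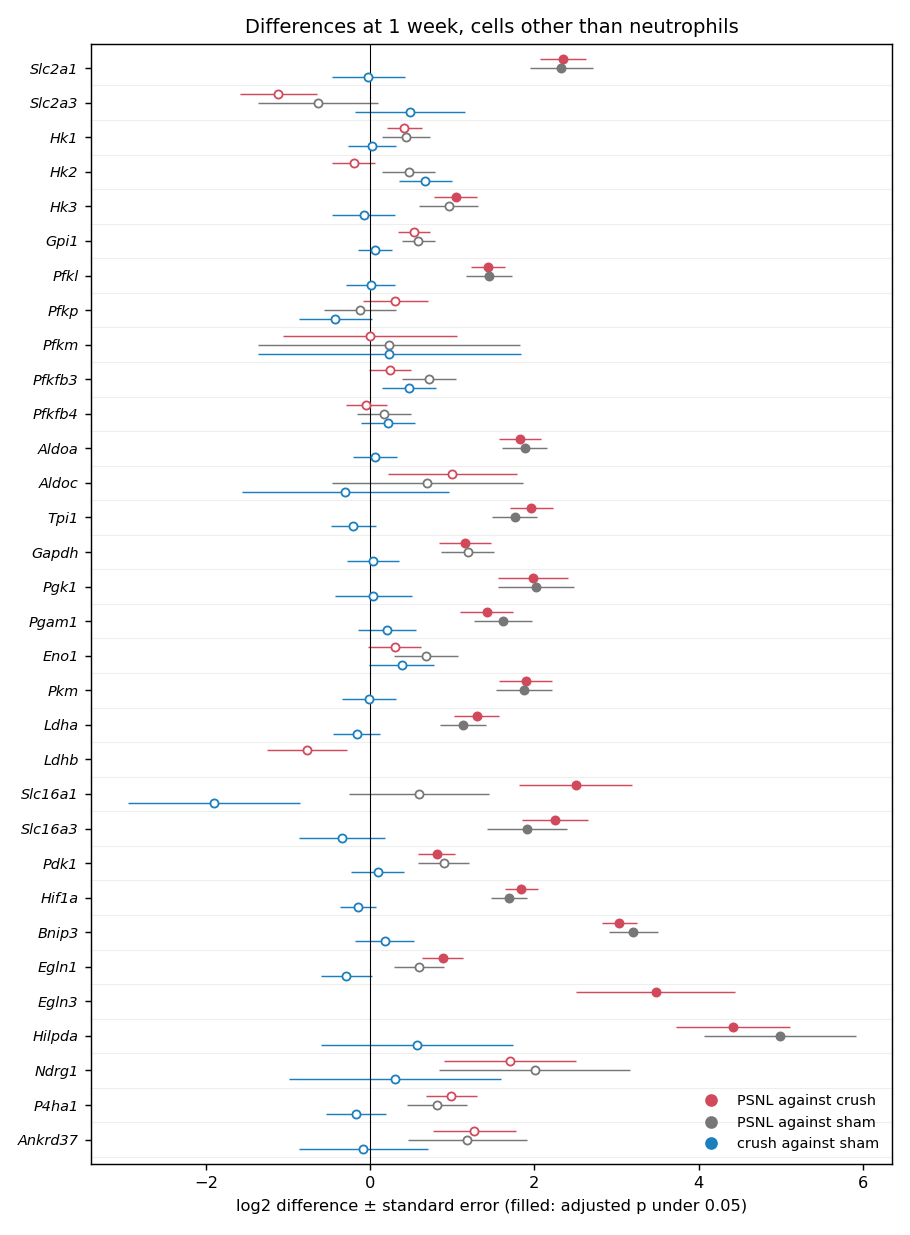
Log2 difference with its standard error for each of the 32 genes at 1 week, in cells other than neutrophils. Filled points have an adjusted p under 0.05 (edgeR), and genes with 0 UMIs in both sham samples have no point against sham. Filled points lie to the right of 0 for 18 genes in PSNL against crush and 12 in PSNL against sham, and crush against sham has none.

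Glucose uptake differed by transporter. Slc2a1 encodes GLUT1, the transporter of basal glucose uptake. Its level was 64.8 and 74.7 CPM in the female and male of PSNL, 14.9 and 12.7 CPM in those of crush and 8.83 and 16.4 CPM in those of sham, the order used below. Both PSNL samples lay above the 4 others, and the log2 difference was 2.35 ± 0.277 (SE) against crush (edgeR adjusted p = 0.000361) and 2.33 ± 0.386 against sham (edgeR adjusted p = 0.00507). Slc2a3 encodes GLUT3, a transporter with high affinity for glucose. It stood at 9.33 and 5.92 CPM in PSNL and at 17.4 and 14.6 CPM in crush, a log2 difference of -1.12 ± 0.465 that did not pass the test (edgeR adjusted p = 0.139).

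Among the upper glycolytic enzymes, Tpi1, Aldoa and Pfkl rose in PSNL against both other groups, and Hk3 against crush. Triose phosphate isomerase (Tpi1) stood at 453 and 555 CPM in the PSNL female and male, at 156 and 104 CPM in crush and at 97.2 and 187 CPM in sham. PSNL did not overlap with the others, with a log2 difference of 1.96 ± 0.259 from crush (edgeR adjusted p = 0.00067) and 1.76 ± 0.278 from sham (edgeR adjusted p = 0.00375). Aldoa, the aldolase of muscle and most other tissues, stood at 643 and 945 CPM in PSNL, 239 and 211 CPM in crush and 168 and 254 CPM in sham. That is a log2 difference of 1.82 ± 0.257 from crush (edgeR adjusted p = 0.00101) and of 1.88 ± 0.271 from sham (edgeR adjusted p = 0.00243). Pfkl is the liver-type subunit of phosphofructokinase, which catalyses the committed step. It stood at 57.7 and 67.5 CPM in PSNL, 21.4 and 24.8 CPM in crush and 22.1 and 23.6 CPM in sham, a log2 difference of 1.44 ± 0.21 from crush (edgeR adjusted p = 0.00111) and 1.44 ± 0.281 from sham (edgeR adjusted p = 0.0117).

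The hexokinases, which trap glucose in the cell as glucose 6-phosphate, differed from each other. Hk3 stood at 35.1 and 43.5 CPM in PSNL and at 24.8 and 14.6 CPM in crush (log2 difference 1.04 ± 0.262, edgeR adjusted p = 0.0218), and at 17.7 and 21.8 CPM in sham (0.96 ± 0.358, edgeR adjusted p = 0.14). Hk2, the hexokinase commonly listed as HIF-responsive, overlapped between the groups, with 70.3 and 122 CPM in PSNL, 98.3 and 125 CPM in crush and 57.4 and 78.1 CPM in sham (log2 difference from crush -0.20 ± 0.265, edgeR adjusted p = 0.679). Neither Hk1 (0.41 ± 0.215 against crush, edgeR adjusted p = 0.232) nor Gpi1, glucose phosphate isomerase (0.53 ± 0.192, edgeR adjusted p = 0.0905), passed the test. Pfkp, Pfkm and Aldoc, the remaining phosphofructokinase subunits and aldolase, had log2 differences between -0.12 and 1.00 in both comparisons and were not called, and Pfkm stayed below 2.1 CPM at 1 week. The regulators Pfkfb3 and Pfkfb4, which make and remove the activator fructose 2,6-bisphosphate, were not called either (0.24 ± 0.251 and -0.05 ± 0.25 against crush).

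In lower glycolysis, 4 of 5 enzymes were higher in PSNL than in crush. Pkm encodes pyruvate kinase of muscle and immune cells. Its level was 846 and 1061 CPM in the PSNL female and male, 279 and 235 CPM in crush and 159 and 343 CPM in sham, with a log2 difference of 1.89 ± 0.324 from crush (edgeR adjusted p = 0.00369) and 1.88 ± 0.338 from sham (edgeR adjusted p = 0.00937). Pgk1, phosphoglycerate kinase, stood at 417 and 556 CPM in PSNL, 154 and 94.2 CPM in crush and 53.0 and 167 CPM in sham (log2 difference 1.98 ± 0.426 and 2.02 ± 0.466, edgeR adjusted p = 0.0145 and 0.0339). For Pkm and Pgk1 the PSNL samples lay above all others of 1 week. Pgam1, phosphoglycerate mutase, stood at 424 and 506 CPM in PSNL, 209 and 141 CPM in crush and 124 and 173 CPM in sham (log2 difference 1.42 ± 0.325 and 1.62 ± 0.355, edgeR adjusted p = 0.016 and 0.023).

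Gapdh, Ldha and Eno1 have near-identical copies elsewhere in the mouse genome, so their counts are uncertain as far as reads match more than 1 place. Gapdh, glyceraldehyde phosphate dehydrogenase, stood at 1225 and 1668 CPM in the PSNL female and male, 734 and 566 CPM in crush and 411 and 845 CPM in sham. It passed the test against crush (log2 difference 1.16 ± 0.316, edgeR adjusted p = 0.0331) and missed it against sham (1.19 ± 0.322, edgeR adjusted p = 0.0534). Eno1 (enolase), the exception among the 5, overlapped between the groups with 70.3 and 97.6 CPM in PSNL, 67.1 and 70.6 CPM in crush and 22.1 and 70.9 CPM in sham (0.29 ± 0.318 against crush, edgeR adjusted p = 0.606).

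Of 5 genes for the fate of pyruvate and lactate, 4 were higher in PSNL than in crush and 2 than in sham. Slc16a3 encodes MCT4, a transporter that exports lactate from glycolytic cells. It stood at 125 and 148 CPM in PSNL, 39.2 and 19.2 CPM in crush and 26.5 and 41.8 CPM in sham, with PSNL above the others (log2 difference 2.26 ± 0.403 from crush, edgeR adjusted p = 0.00505, and 1.91 ± 0.487 from sham, edgeR adjusted p = 0.0435). Ldha, the lactate dehydrogenase subunit that favours lactate formation, stood at 528 and 707 CPM in PSNL, 272 and 232 CPM in crush and 208 and 345 CPM in sham (1.30 ± 0.271 and 1.13 ± 0.282, edgeR adjusted p = 0.00886 and 0.0356). Pdk1, a kinase that switches pyruvate dehydrogenase off, stood at 35.1 and 28.8 CPM in PSNL and at 16.9 and 19.2 CPM in crush (0.81 ± 0.224, edgeR adjusted p = 0.0328), and at 22.1 and 14.5 CPM in sham (0.90 ± 0.313, edgeR adjusted p = 0.146).

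Slc16a1, which encodes MCT1, rested on 16 and 29 UMIs in PSNL and on 5 and 2 UMIs in crush. It was called against crush (log2 difference 2.50 ± 0.691, edgeR adjusted p = 0.0323) but in sham its level of 8.83 and 3.63 CPM overlapped with the 8.78 and 7.47 CPM of PSNL. Ldhb, the other main lactate dehydrogenase subunit, had no UMI in either sham sample and 9.33 and 7.21 CPM in PSNL. Taking 3 UMIs over the sham group as the limit of a count of 0, its level was at least 2.14-fold higher in PSNL and at least 3.59-fold higher in crush, where it stood at 14.4 and 13.3 CPM, and neither difference passed the test. Limits of this kind cover counting error only.

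Hif1a, the oxygen-regulated subunit of HIF-1, was itself higher as RNA in PSNL. Its level was 387 and 426 CPM in PSNL, against 118 and 109 CPM in crush and 92.8 and 149 CPM in sham. Both PSNL samples lay above the 4 others, with a log2 difference of 1.84 ± 0.203 from crush (edgeR adjusted p = 0.000254) and 1.69 ± 0.222 from sham (edgeR adjusted p = 0.00156). Egln1 and Egln3 encode prolyl hydroxylases (PHD2 and PHD3) that mark HIF-1α for breakdown. Egln1 stood at 68.6 and 55.4 CPM in PSNL and at 26.8 and 39.4 CPM in crush (0.88 ± 0.246, edgeR adjusted p = 0.0336), whereas the sham male reached 49.1 CPM and the difference from sham was not called (0.59 ± 0.304, edgeR adjusted p = 0.291). Egln3 stood at 12.6 and 14.4 CPM in PSNL, on 23 and 56 UMIs, and at 1.99 and 0.62 CPM in crush (3.48 ± 0.972, edgeR adjusted p = 0.0364). Outside PSNL at 1 week it stayed at or below 1.99 CPM, so it passed the filter only through the samples where it is high. Its calls, counted among the 18 against crush and the 22 lower in PSNL at 15 weeks, are therefore no support for a difference. Neither sham sample had an Egln3 UMI, so its level in PSNL was at least 3.50-fold higher, a difference that did not pass the test.

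Bnip3 and Hilpda, which lie outside glycolysis, had the 2 largest log2 differences from sham among the 12 members called there. Bnip3 promotes the removal of mitochondria by autophagy. It stood at 111 and 102 CPM in the PSNL female and male, at 12.9 and 13.01 CPM in crush and at 8.83 and 12.7 CPM in sham (log2 difference 3.03 ± 0.214 from crush, edgeR adjusted p = 1.69e-05, and 3.21 ± 0.301 from sham, edgeR adjusted p = 0.000143). Hilpda inhibits the triglyceride lipase ATGL and so favours lipid droplets. It stood at 240 and 490 CPM in PSNL, at 30.3 and 6.2 CPM in crush and at 8.83 and 12.7 CPM in sham (4.42 ± 0.691, edgeR adjusted p = 0.0044, and 4.99 ± 0.929, edgeR adjusted p = 0.0167). PSNL lay above every other sample of 1 week for both genes, and the 2 crush samples of Hilpda lay far apart. P4ha1, a collagen prolyl hydroxylase subunit, Ndrg1, a stress-induced gene, and Ankrd37 had log2 differences of 0.99 ± 0.311, 1.70 ± 0.802 and 1.27 ± 0.506 from crush that did not pass the test (edgeR adjusted p = 0.0579, 0.205 and 0.121).

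**Figure D3:**
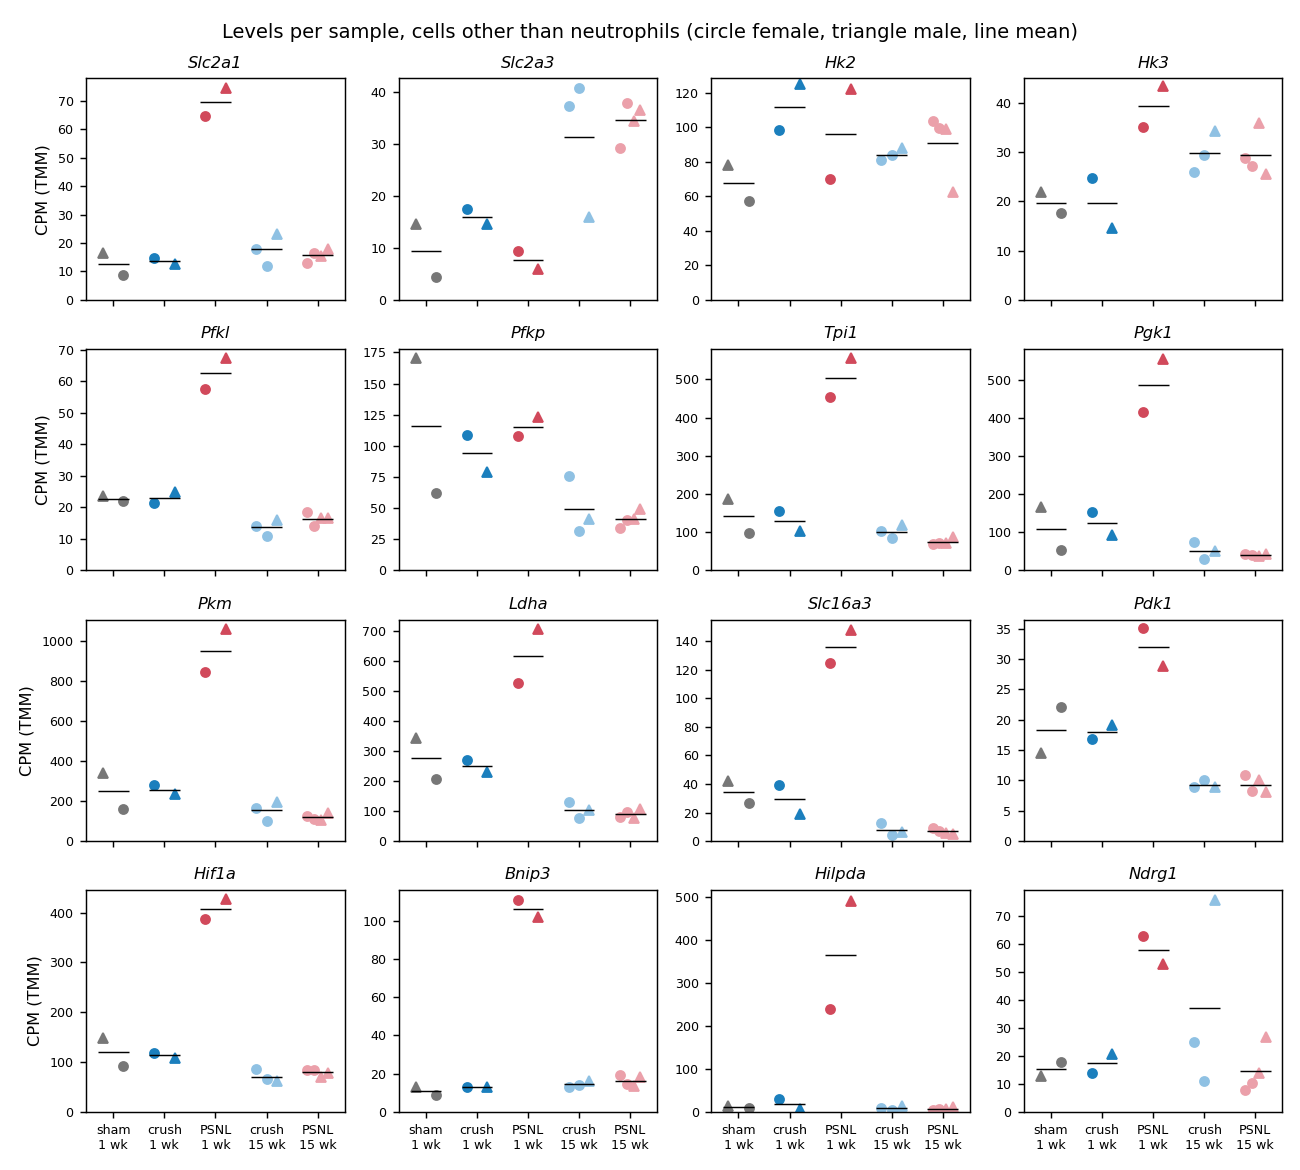
Level in CPM (on TMM-scaled totals) of 16 of the 32 genes in each of the 13 samples, cells other than neutrophils, with the group mean as a line. PSNL at 1 week lies above the other groups for Slc2a1, Pfkl, Tpi1, Pgk1, Pkm, Ldha, Slc16a3, Hif1a, Bnip3 and Hilpda, whereas Hk2 and Pfkp overlap between the groups and Slc2a3 is higher at 15 weeks than in PSNL at 1 week.

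The counts rest on few samples. Of the 18 calls against crush, 7 (Slc2a1, Pfkl, Aldoa, Tpi1, Hif1a, Bnip3 and Hilpda) stood with each of the 13 samples left out in turn, and 7 were made without the PSNL male, 8 without the crush male, 13 without the PSNL female and 14 without the crush female, where 0.863%, 1.45%, 3.10% and 3.06% of all genes were called higher. Of the 12 calls against sham, 5 (Slc2a1, Aldoa, Tpi1, Hif1a and Bnip3) stood with each left out, and 5 were made without the PSNL male or without the sham female, where 0.511% and 0.844% of all genes were called higher. In those fits Hilpda had an edgeR adjusted p of 0.0782 without the PSNL male, 0.0969 without the sham female and 0.133 without the sham male, and Pfkl one of 0.0856, 0.0608 and 0.106. Slc16a3 against sham was at 0.176 without the PSNL male and 0.192 without the sham female in edgeR's adjusted p. When library was added as a factor to the fit of the 1 week samples, its effect rested on the sham female and the sham male, and 2 of 31 members tested were called higher in PSNL than in crush (Pkm, log2 difference 2.92, edgeR adjusted p = 0.0246, and Hif1a, 2.44, edgeR adjusted p = 0.0325), while Bnip3 was at 3.47 (edgeR adjusted p = 0.0751) and Slc2a1 at 3.15 (edgeR adjusted p = 0.106). In that fit 0.291% of all genes were called higher in PSNL than in crush, and against sham it called 10 of 31 members and 1.64% of all genes higher. Within the PSNL library, 30 of the 32 members lay above the sham female in both PSNL samples and Slc16a1 lay below it in both, where 51.5% of all genes tested lay above and 35.5% below. Slc2a1, Bnip3 and Hilpda rested on 2 UMIs each in the sham female, and Slc2a3 and Aldoc on 1 each. Pfkm, Ldhb and Egln3 had 0 UMIs there, so any UMI in a PSNL sample put them above it.

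No member was called between crush and sham at 1 week. Of 32 members, 0 were called higher and 0 lower by edgeR, where 0.0521% of all genes were called higher and 0.0869% lower. A single member had an unadjusted p under 0.05, and DESeq2 called 0. The median log2 difference was 0.03 over the members (0.02 with lower bounds) and 0.09 over all genes. The standard errors show what could be seen: Slc2a1 differed by -0.02 ± 0.443, Bnip3 by 0.17 ± 0.363, Hif1a by -0.15 ± 0.225 and Hilpda by 0.57 ± 1.17 on the log2 scale. In the crush library 9 members lay above the sham male in both crush samples and 15 below it, where 43.3% of all genes tested lay above and 33.5% below. Ldhb and Egln3, with 0 UMIs in the sham male, are among the 9.

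Other values moved along with PSNL in these cells, and their part in the result was not tested. Of all genes tested, 5.93% were called higher in PSNL than in crush and 5.89% lower, and 3.00% and 2.11% against sham. The 4 MHC class II genes summed to 10550 and 12240 CPM in PSNL, 27700 and 32780 CPM in crush and 25530 and 30010 CPM in sham, and all 4 were called lower in PSNL. Of 10 macrophage markers, 2 were lower and 1 higher than in sham, and 1 was higher than in crush. Their sums were 11190 and 7570 CPM in PSNL, 15950 and 25120 CPM in crush and 13760 and 8789 CPM in sham. Of 6 monocyte markers, 1 was higher than in crush and 0 were called against sham. They summed to 1339 and 1281 CPM, 750 and 1712 CPM and 398 and 618 CPM in the same order. Of 7 resident macrophage markers, 4 were lower than in sham (median log2 difference -2.17) and 1 was higher than in crush, with sums of 1748 and 2058 CPM in PSNL, 642 and 368 CPM in crush and 4352 and 2608 CPM in sham. Of 12 cell cycle genes, 4 were lower than in crush (median -1.85) and 0 were called against sham, with sums of 112 and 180 CPM in PSNL, 486 and 396 CPM in crush and 309 and 264 CPM in sham. Both eosinophil markers tested were lower than in crush, where all 5 summed to 25.8 and 44.0 CPM against 8.57 and 1.49 CPM in PSNL. Of 11 genes of dissociation and stress, 0 were called in either comparison, with sums of 8015 and 7338 CPM in PSNL, 5100 and 3332 CPM in crush and 4064 and 7480 CPM in sham. Of the 10 neutrophil markers tested, S100a9 and S100a8 were higher in PSNL than in crush (log2 difference 3.46 and 3.21), although the sum of all 13 was 486 CPM in both PSNL samples against 274 and 623 CPM in crush. These 2 genes set the neutrophil gate, so their test covers only values below its 1% limit. It cannot decide whether neutrophil RNA differed between the groups. Fibroblast markers summed to 21.4 and 103 CPM in PSNL and to 7.23 to 16.2 CPM in the others of 1 week. Gm42418, an RNA that shares sequence with ribosomal RNA, took 7.31% to 18.5% of UMIs at 1 week, and without it the shares of the 32 genes were 0.659% and 0.784% in PSNL, 0.321% and 0.259% in crush and 0.220% and 0.362% in sham.

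Much of the RNA of these genes in PSNL came from cells with Arg1. Arg1, arginase 1, is a gene of alternatively activated macrophages, and cells with at least 0.05% of their UMIs in Arg1 made up 30.3% of the cells of the PSNL female and 36.5% of those of the PSNL male, 0% and 0.342% in crush and 0% in sham. Their share of UMIs in the 32 genes was 0.834% and 0.986%, against 0.431% and 0.512% in the rest of the same samples. They held 50.6% and 57.0% of the UMIs of the 32 genes and 34.6% and 40.8% of all UMIs. For Bnip3 they held 70.3% and 71.5% and for Hilpda 62.7% and 74.1%. Arg1 cells had a median of 5581 and 6140 UMIs against 4503 and 5205 in the rest, and 2.59% and 2.92% of them were MHC class II cells against 31.8% and 37.6% of the rest.

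Within the 2 PSNL samples, 22 of 29 members tested were higher in Arg1 cells and 0 lower (edgeR with the sample as a block), where 9.91% of all genes were called higher and 9.61% lower. The median log2 difference was 0.94 over the members and 0.004 over all genes. Hilpda stood at 376 and 757 CPM in Arg1 cells of the female and male and at 118 and 180 CPM in the rest (log2 difference 1.91 ± 0.119, edgeR adjusted p = 2.45e-09). Bnip3 stood at 195 and 152 CPM against 43.5 and 41.2 CPM (1.99 ± 0.152, edgeR adjusted p = 3.39e-08), and Egln3, on fewer UMIs, differed by 2.76 ± 0.404. With 3 and 12 UMIs in the rest, Egln3 passed the filter only through the Arg1 cells, so its call is no support for a difference. Among the enzymes, Pgk1 stood at 657 and 730 CPM against 204 and 291 CPM (1.49 ± 0.111, edgeR adjusted p = 2.55e-08) and Tpi1 at 633 and 695 CPM against 264 and 314 CPM (1.20 ± 0.102, edgeR adjusted p = 1.33e-07). Both samples showed each of these differences. P4ha1, Ndrg1, Ankrd37, Gpi1, Hk1 and Eno1, which were not called between PSNL and crush, were called here with log2 differences of 0.78 to 1.61. Hk2, Hk3, Pfkp, Pfkfb3, Pfkfb4, Ldhb and Slc16a1 were not, and Pfkfb3 lay lower in Arg1 cells (-0.54 ± 0.185, edgeR adjusted p = 0.0503). Calls from 2 samples rest on the spread shared over all genes.

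With the Arg1 cells left out of every sample, PSNL was higher than crush in 9 of 31 members tested (Slc2a1, Pfkl, Aldoa, Tpi1, Pkm, Slc16a3, Hif1a, Bnip3 and Hilpda), where 3.09% of all genes were called higher. Their log2 differences fell, for Bnip3 from 3.03 to 1.91, for Hilpda from 4.42 to 3.34, for Slc2a1 from 2.35 to 1.77 and for Hif1a from 1.84 to 1.45. Against sham 6 of 31 were called higher, and 1.29% of all genes. In MHC class II cells alone (at least 2% of UMIs in Cd74, H2-Aa, H2-Ab1 and H2-Eb1), 4 of 29 were higher in PSNL than in crush, namely Tpi1 (1.46), Aldoa (1.31), Hif1a (1.38) and Bnip3 (1.95), and 0 of 29 were higher than in sham by edgeR. These cells are fewer, and 1.14% of all genes were called higher against crush and 0.263% against sham. Shares in these cells were 0.367% and 0.457% in PSNL, 0.299% and 0.226% in crush and 0.224% and 0.361% in sham.

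**Figure D4:**
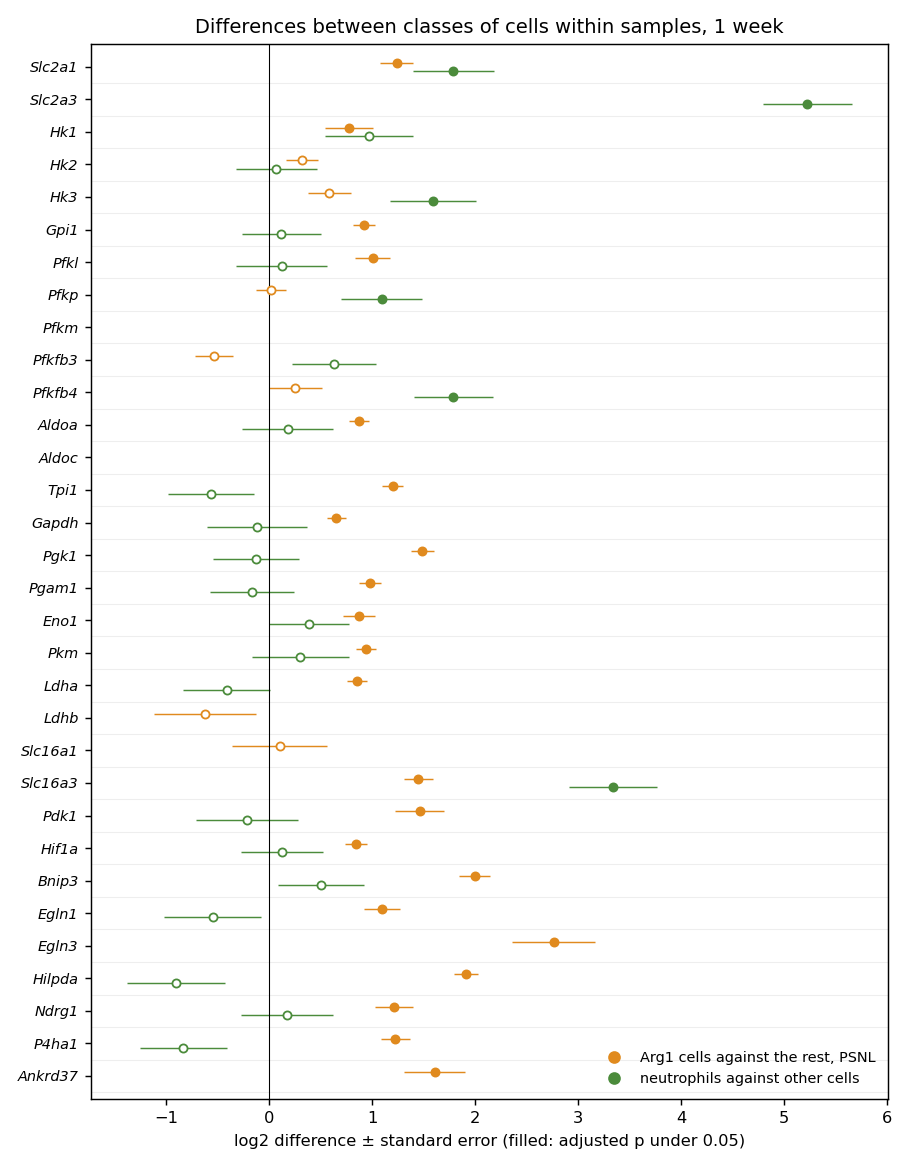
Log2 difference with its standard error between classes of cells within the same samples at 1 week, for Arg1 cells against the rest in the 2 PSNL samples and for neutrophils against all other cells in 4 samples. Filled points have an adjusted p under 0.05 (edgeR). Arg1 cells are higher for 22 genes, and neutrophils for 6, led by Slc2a3.

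Neutrophils were compared with the other cells of the same samples. Of 26 tested in the 4 samples with at least 10 cells of both classes (sham male, crush male, both PSNL samples), 6 were higher in neutrophils than in the other cells and 0 lower (edgeR with the sample as a block), where 17.5% of all genes were called higher and 21.3% lower. The share of members called higher lies near that of all genes, and Slc2a1, Slc16a3 and Hk3 among the 6 are also among the 18 that were higher in PSNL than in crush. Slc2a3 stood at 291 CPM in neutrophils of the sham male, 335 CPM in the crush male, 495 CPM in the female of PSNL and 303 CPM in its male, against 14.7, 14.4, 8.89 and 5.52 CPM in the other cells (log2 difference 5.23 ± 0.435, edgeR adjusted p = 9.62e-31). Slc16a3 stood at 388, 604, 941 and 765 CPM against 42.1, 19.0, 119 and 138 CPM (3.34 ± 0.425, edgeR adjusted p = 1.92e-13). All 4 samples were higher in neutrophils for both genes. Without TMM scaling the neutrophil levels were 429, 396, 363 and 231 CPM for Slc2a3 in the same order of samples. For Slc16a3 they were 572, 713, 690 and 583 CPM. The order of the samples thus depends on the scaling, and only the difference within a sample is read here. The sham male rests on 9 UMIs of Slc2a3 and 12 of Slc16a3 in its neutrophils.

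The other 4 were Slc2a1 (log2 difference 1.79 ± 0.392, edgeR adjusted p = 5.55e-05), Pfkfb4 (1.79 ± 0.387, edgeR adjusted p = 4.40e-05), Hk3 (1.59 ± 0.417, edgeR adjusted p = 0.000913) and Pfkp (1.09 ± 0.393, edgeR adjusted p = 0.0185). Pfkp was not called without the PSNL female (edgeR adjusted p = 0.30) or the PSNL male (0.461), and Hk3 not without the PSNL female (0.0721). Bnip3, Hif1a, Hilpda and most enzymes of the pathway were not called. Hilpda had a log2 difference of -0.90 ± 0.475, which was called with another scaling (-1.50). The share of the 32 genes in neutrophils was 0.433% in the sham male on 11 cells, 0.547% in the crush male on 21 cells, 0.560% in the PSNL female on 149 cells and 0.793% in the PSNL male on 123 cells. In this class the 10 macrophage markers summed to 2477, 713, 5255 and 6519 CPM in the same order of samples. In the other cells of these samples they summed to 8789, 25120, 11190 and 7570 CPM. The MHC class II genes summed to 3048, 26.4, 3502 and 4322 CPM. Of the class, 3.36% in the PSNL female and 5.69% in the PSNL male also passed the Arg1 limit. The class thus held much macrophage RNA in PSNL, and the part of that RNA in these levels was not tested. The levels, and the members not called, therefore cannot be read as those of neutrophils alone. As the gate was set at 1%, 20 cells of PSNL at 0.5% to 1% and 27 at 1% to 2% lay near it.

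At 15 weeks 0 of 32 members were called between PSNL and crush in either direction by edgeR, where 0% of all genes were called higher and 0% lower. Of the members, 3 had an unadjusted p under 0.05, and DESeq2 called 0. The median log2 difference was -0.18 over the members and -0.007 over all genes. Hif1a stood at 60.9 to 85.1 CPM in crush and at 69.8 to 84.8 CPM in PSNL (0.17 ± 0.154), Slc2a1 at 12.0 to 23.3 and at 13.1 to 17.8 CPM (-0.22 ± 0.202), and Bnip3 at 12.8 to 16.4 and at 13.7 to 19.0 CPM (0.15 ± 0.159). The ranges overlapped for all 3.

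Most members were lower in PSNL at 15 weeks than at 1 week. In PSNL 22 of 32 members were lower at 15 weeks and 2 higher (edgeR), where 26.3% of all genes were called lower and 29.2% higher. The median log2 difference was -1.85 over the members and 0.05 over all genes, and 16 of the 18 members that were higher in PSNL than in crush at 1 week were among the 22. Hilpda fell from 240 and 490 CPM to between 4.86 and 12.2 CPM (log2 difference -5.67 ± 0.553, edgeR adjusted p = 1.76e-05). Bnip3 fell from 111 and 102 CPM to between 13.7 and 19.0 CPM (-2.71 ± 0.162, edgeR adjusted p = 3.51e-08), Hif1a from 387 and 426 CPM to between 69.8 and 84.8 CPM (-2.36 ± 0.164, edgeR adjusted p = 1.34e-07) and Slc16a3 from 125 and 148 CPM to between 4.99 and 8.96 CPM (-4.35 ± 0.35, edgeR adjusted p = 1.10e-06). None of these ranges overlapped. Time cannot be told apart from batch here.

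Slc2a3 moved the other way, from 9.33 and 5.92 CPM to between 29.1 and 37.8 CPM (log2 difference 2.24 ± 0.403, edgeR adjusted p = 0.000455), and Pfkfb4 rose less (0.60 ± 0.216, edgeR adjusted p = 0.0294). With neutrophils left in, where 28.0% and 14.1% of the PSNL cells at 1 week were neutrophils, the Slc2a3 difference turned to -0.47 and was not called. In crush 8 members were lower at 15 weeks and 2 higher, where 18.5% of all genes were called lower and 24.1% higher, and without the crush female of 1 week the count was 5, where 12.2% of all genes were called lower and 17.6% higher. The 8 were Gpi1, Pfkl, Pgk1, Pgam1, Ldha, Slc16a3, Pdk1 and Hif1a. Of these, Ldha changed by -1.28 ± 0.242 (edgeR adjusted p = 0.000975) and Slc16a3 by -1.88 ± 0.393 (edgeR adjusted p = 0.00254), while Hif1a changed by -0.69 ± 0.182 (edgeR adjusted p = 0.00813). Bnip3, Hilpda and Slc2a1 were not called in crush (0.17 ± 0.203, -0.82 ± 0.651 and 0.43 ± 0.26).

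The test of the difference between these changes called 13 of 32 members, all more negative in PSNL than in crush, and 0 more positive (edgeR), where 4.27% of all genes were called more negative and 3.84% more positive. Bnip3 led with -2.88 ± 0.263 on the log2 scale (edgeR adjusted p = 0.000294), and the others were Slc2a1, Pfkl, Aldoa, Tpi1, Gapdh, Pgk1, Pgam1, Pkm, Ldha, Slc16a3, Hif1a and Hilpda. The count was 5 without the PSNL male and 6 without the crush male of 1 week, 7 with Arg1 cells left out and 2 in MHC class II cells alone, where 0.578%, 0.894%, 1.79% and 0.496% of all genes were called more negative. This comparison and those above share their samples.

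**Figure D5:**
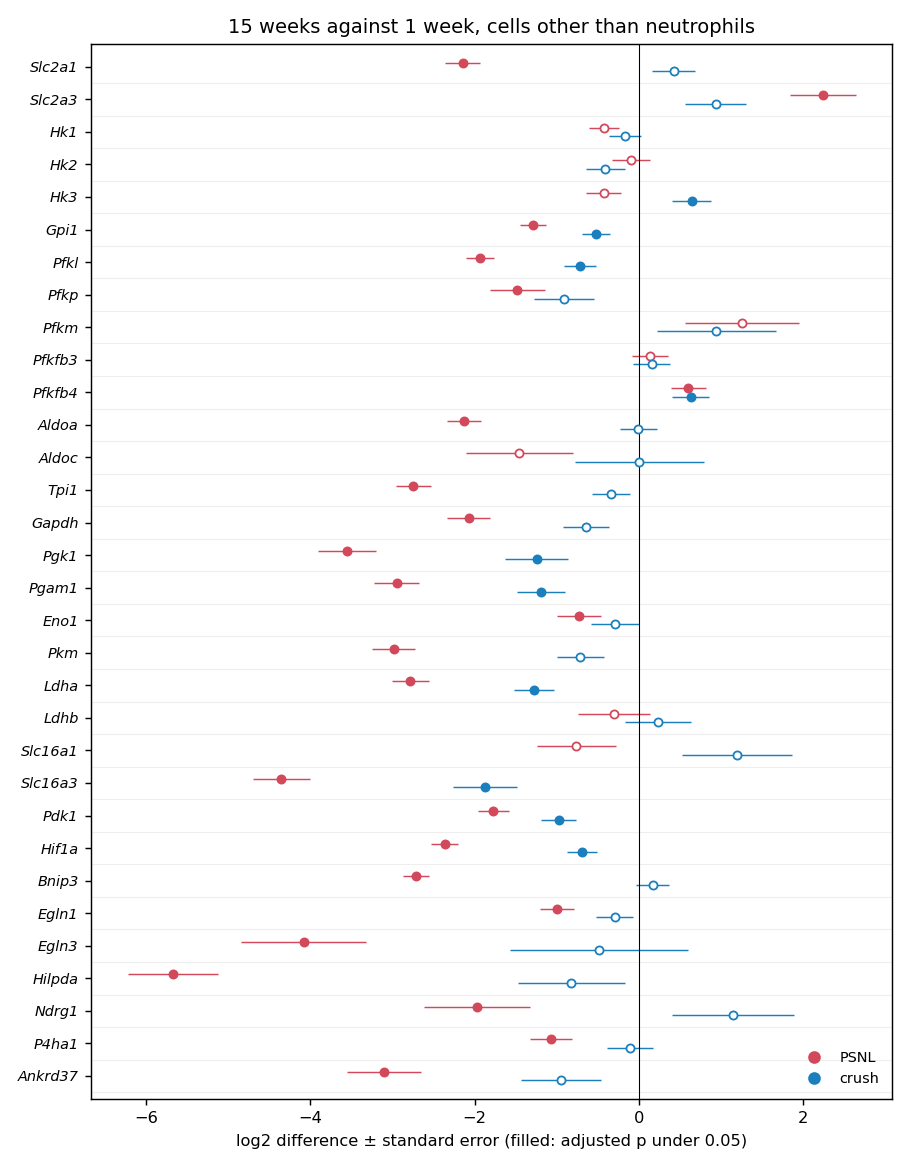
Log2 difference with its standard error between 15 weeks and 1 week for each of the 32 genes in PSNL and in crush, cells other than neutrophils. Filled points have an adjusted p under 0.05 (edgeR). In PSNL 22 genes lie lower and 2 higher, and in crush 8 lower and 2 higher.

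Neighbouring pathways were followed in lists that hold no member. For the counts below, 5.93% of all genes tested were called higher in PSNL than in crush and 5.89% lower. Against sham 3.00% were called higher and 2.11% lower. Of 28 other HIF and hypoxia genes tested, 8 were higher in PSNL than in crush and 0 lower (median log2 difference 0.44), and 6 were higher than in sham (0.60). Ero1l, an oxidase of protein folding, stood at 73.0 and 85.2 CPM in PSNL, 18.9 and 19.8 CPM in crush and 22.1 and 14.5 CPM in sham (log2 difference from crush 2.03 ± 0.207, edgeR adjusted p = 0.000151). Hmox1, haem oxygenase 1, stood at 366 and 478 CPM, 103 and 98.2 CPM and 274 and 204 CPM in the same order and was not called against sham. Mxi1, a repressor that opposes Myc, stood at 87.8 and 111 CPM, 18.4 and 22.9 CPM and 8.83 and 40.0 CPM. Of 12 other isozymes and regulators of glycolysis tested, 0 were called in either comparison (edgeR, median log2 difference 0.03 in both). Of 25 genes of the tricarboxylic acid cycle and pyruvate entry, 2 were higher (Mpc2 and Sdhb) and 1 lower (Suclg2) than in crush and 0 were called against sham. These counts lie near the shares of all genes. Of 7 genes of the pentose phosphate pathway, Pgd was higher than in crush (1.09 ± 0.214, edgeR adjusted p = 0.00688), and Pgd and Taldo1 were higher than in sham. Of 10 genes of glycogen metabolism, 3 (Ugp2, Pgm2 and Gys1, which is also on the hypoxia list) were higher than in crush and 0 were called against sham.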

How the data were processed

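CD45+/CD11b+ cells of mouse sciatic nerve were read as 10x single-cell RNA with hashtag antibodies, in 4 libraries. The authors deposited unnormalized counts of UMIs for each gene and barcode, hashtags included. Their processing notes list the tools Cell Ranger 6.0.0 and Seurat 5.1.0 and the build GRCm38, but per the file headers the 15 week libraries were made with version 7.0.0. Whether intronic reads were counted is not stated.

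A barcode was given a sample where exactly 1 hashtag lay above the valley of its log10(count + 1) density (bandwidth 0.15, searched from 10 to 300 counts). Of 9133 barcodes, 6546 were kept, with 500 genes or more and a mitochondrial share below 10%. Barcodes with several hashtags were removed (514 and 713 in the crush and PSNL libraries of 1 week, 48 and 107 at 15 weeks). No doublet caller was run, so doublets within a sample remain. Groups were taken from the labels.

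UMIs were summed per sample, scaled by TMM, filtered by filterByExpr (11510 genes left) and compared by edgeR 4.0.16, whose quasi-likelihood F-test was used (limma 3.58.1, R 4.3.3), all 13 samples in 1 fit with 8 residual degrees of freedom and a median of 5.55 prior ones. Adjusted p is that of Benjamini and Hochberg over all genes tested, called under 0.05. Standard errors are the log2 difference divided by the root of F. Levels are CPM on TMM-scaled totals, except the sums of marker and other gene lists and the values of Xist and Ddx3y, which are CPM on plain UMI totals. For classes of cells the sample was a block in the fit, and each class needed at least 10 cells. The samples of each group differed beyond sampling noise (chi-squared over its degrees of freedom, 4.14 to 41.3).

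All 32 genes are accounted for, with values by sample for those called between PSNL and crush, PSNL and sham or neutrophils and other cells. Other genes are given as counts of lists, with at most 3 named by smallest adjusted p per list and comparison. Vegfa and Mif of the hypoxia list are named in addition, under other observations. The members, lists, hashtag rule and tests were chosen with earlier results of these data known. Alternatives were other hashtag rules (HTODemux of Seurat 5.3.0 at a quantile of 0.99), cell filters, neutrophil limits, scalings, DESeq2 1.42.0, sex or library terms, subsets of cells and each sample left out. Intervals from counts cover counting error only. Start regions are from RefSeq. Human cells were not analysed here.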

Additional observations from a re-analysis of the deposited data

Results flagged for a closer look

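The change from 1 to 15 weeks differed between PSNL and crush in 13 members by the test of that difference (edgeR adjusted p under 0.05). It was more negative in PSNL in each, by a log2 difference of -4.85 for Hilpda, -2.88 for Bnip3, -2.57 for Slc2a1, -2.48 for Slc16a3, -2.41 for Tpi1, -2.31 for Pgk1, -2.27 for Pkm, -2.12 for Aldoa, -1.76 for Pgam1, -1.67 for Hif1a, -1.50 for Ldha, -1.43 for Gapdh and -1.22 for Pfkl. Of these, Bnip3, Slc2a1, Tpi1, Aldoa and Hif1a kept their call with each sample left out in turn.

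Among the 4 PSNL samples of 15 weeks, 1 sample stood apart from the other 3 in 4 members, by its gap to the nearest sample divided by the range (limit 0.829; 33 sets of 4 samples were looked at, and chance flags about 1 in 20). Hk2 was low in male 2, at 62.4 CPM against 99 to 103 CPM (gap over range 0.893). Tpi1 was high in male 2, at 86.4 CPM against 70.6 to 72.8 CPM (0.859), as was Hilpda, at 12.2 CPM against 4.86 to 6.01 CPM (0.842). P4ha1 was high in female 1, at 91.1 CPM against 56.7 to 61.7 CPM (0.855).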

How the results depend on the processing

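Member calls in PSNL against crush at 1 week (18) were 9 with Arg1 cells left out, 4 in MHC class II cells alone and 2 with library as a term, and ranged from 7 to 20 with 1 sample left out. Those in PSNL against sham (12) were 6, 0 and 10 in the same 3 settings and 5 to 13 with 1 sample left out. Crush against sham (0) gave 0 to 1 with 1 sample left out, the 1 being Ldhb without the crush male of 15 weeks (edgeR adjusted p = 0.0187). PSNL against crush at 15 weeks gave 0 under all its alternatives. The difference between the changes with time (13) gave 7 with Arg1 cells left out, 2 in MHC class II cells and 5 to 16 with 1 sample left out. Crush at 15 weeks against 1 week (10) gave 5 in MHC class II cells and 5 to 13 with 1 sample left out, and PSNL at 15 weeks against 1 week (24) gave 19 to 26 in all, 20 to 25 with 1 sample left out. Neutrophils against other cells (6) gave 10 with RLE scaling, 6 higher and 4 lower, where the median of all genes was -0.72 against -0.26 with TMM on the log2 scale, and 4 to 9 with 1 sample left out. Arg1 cells against the rest gave 22 to 24, and leaving out a sample was not run there, since 1 sample leaves no residual degrees of freedom. Fewer cells or samples enter most of these fits, and otherwise the cause was not tested. Where no share of all genes is given for a setting, here or above, its count shows only how far the number of calls moved. Such a count, as that with RLE scaling, cannot be read as a result about the members. Each member call was counted once per alternative. Of these pairs, 2068 kept direction and side of the threshold, 227 lost the call and 3 changed sign: Pdk1 in PSNL against crush in MHC class II cells (-0.37), Eno1 in PSNL between times in those cells (0.13) and Slc2a3 in PSNL between times with neutrophils left in (-0.47). Many pairs leave out a sample of a group outside the comparison, so these numbers are no measure of how many calls held throughout. Replicate numbers at 15 weeks were not taken as pairs. The correlation of same-numbered samples, after subtracting each group's mean, was 0.0752 for F1, 0.163 for F2 and 0.115 for M1. Samples of different numbers were not correlated, so these values cannot decide whether the numbers pair the samples. A fit with the replicate block called 0 members in PSNL against crush, as without it. Depth limits Egln3, Slc16a1, Ldhb, Pfkm and Aldoc, and all values of the sham female.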

Other observations

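Vegfa, the main growth factor for blood vessels and on the list of other HIF and hypoxia genes, stood at 208 and 382 CPM in the female and male of PSNL at 1 week, against 13.9 and 4.96 CPM in those of crush and 4.42 and 10.9 CPM in those of sham. The log2 difference was 5.06 ± 0.848 from crush (edgeR adjusted p = 0.0064) and 5.05 ± 1.12 from sham (edgeR adjusted p = 0.0343). It was chosen after its values were seen. Mif, a cytokine of macrophages on the same list, stood at 478 and 691 CPM in PSNL, 192 and 173 CPM in crush and 159 and 189 CPM in sham (log2 difference from crush 1.69 ± 0.244, edgeR adjusted p = 0.00109). Both PSNL samples lay above the 4 others for these 2 genes.

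In the small class of neutrophils, Egln3 stood at 89.5 CPM in the crush male, 46.0 CPM in the female of PSNL and 97.1 CPM in its male, against 0.61, 12.0 and 13.4 CPM in the other cells of the same samples, and at 0 CPM in both classes of the sham male. The neutrophil levels rest on 4 UMIs in the crush male and on 13 and 25 in PSNL. Neutrophils of the sham male had only 20995 UMIs over all genes. Egln3 was below the filter on low counts in that comparison and was not tested.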
